A study of Rattus norvegicus with 4 samples.

Results

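The cells described here were the endothelial cells (EC) of the rat anterior pituitary, picked out by their counts of 4 transcripts: *Plvap*, whose product forms the diaphragms of fenestrae and caveolae, *Emcn*, a sialomucin of the endothelial surface, *Clec14a*, a lectin-like receptor of endothelium, and *Aplnr*, the receptor for apelin. A cell was kept when these genes together had at least 3 unique molecular identifiers (UMIs, each standing for a captured RNA molecule), when 2 or more of them were detected, and when *Gh1* took less than 5%, *Prl* less than 2%, *Pomc* less than 2% and *Cga* less than 1% of its UMIs. The rule kept 173 of 7861 cells, or 2.20%. The rats were of the Sprague Dawley strain, and the glands were dispersed with trypsin and EDTA after the intermediate and posterior lobes had been dissected away. The female sample was a pool of 4 pituitaries from rats aged 44 days, all in diestrus, and the male sample a pool of 4 pituitaries from rats aged 59 days. Each pool was run on 2 lanes of a droplet instrument (10X Genomics, 3′ end libraries), called Fa and Fb for females and Ma and Mb for males. The lanes of a sex thus measured the same pool, so that p-values for sex refer to the spread between lanes, and sex, age and pool cannot be told apart.

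The anterior pituitary receives hypothalamic hormones and releases its own through a dense bed of fenestrated capillaries, whose pores are closed by *Plvap* diaphragms and which lack the tight barrier of brain vessels. These vessels depend on vascular endothelial growth factor (VEGF) made by neighbouring cells, rest on a basement membrane, and lie beside both the hormone-producing cells (HPC) and the folliculostellate cells (FSC). Pericytes cover the outside of capillaries, and red blood cells and leukocytes (Le) remain in the vessels when the tissue is dispersed.

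The 4 genes of the rule were abundant in the members and close to absent elsewhere. A member held between 5 and 282 UMIs over the 4 genes (median 62), 164 members had all 4 genes, 8 had 3 and 1 had 2. Only 2 members lay near the limit, with 5 and 9 UMIs. Just outside it were 18 cells with 2 UMIs, 136 with 1 UMI and 7 with 3 or more UMIs of a single gene, at most 7, and 1 further cell was left out because *Pomc* took 28.6% of its UMIs. The members held 96.3% of all UMIs of these genes in the series. *Plvap* stood at 4271, 4345, 4399 and 3914 CPM (the UMIs of a gene per 1000000 UMIs of the EC of the lane) in Fa, Fb, Ma and Mb. *Emcn* stood at 1501, 1615, 1730 and 1485 CPM, *Clec14a* at 778, 715, 809 and 695 CPM, and *Aplnr* at 789, 903, 899 and 769 CPM. The lanes differed little in any of the 4 genes. These levels chose the cells and are given as a description, without a test.

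Free RNA from lysed cells enters every droplet, so the share of cells with a UMI of a gene was set beside that in 2048 somatotroph-type cells, in which *Gh1* took at least 5% of UMIs and endothelial genes should be absent. The median depth was 8127 UMIs in EC and 13897 UMIs in the *Gh1*-rich cells, and each cell was therefore also thinned to 2000 UMIs. After thinning, *Plvap* was found in 97.1% of EC and 0.488% of *Gh1*-rich cells, *Emcn* in 93.1% and 0.0977%, *Clec14a* in 72.3% and 0.781%, and *Aplnr* in 76.3% and 0%. These shares follow from the rule. As a check on genes that the rule did not use, *Kdr* was found in 82.1% of EC and 0.146% of *Gh1*-rich cells and *Cdh5* in 52.0% and 0%.

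EC made up 3.0% of the cells of Fa (56 of 1868, exact 95% interval 2.27 to 3.88%), 2.53% of Fb (47 of 1861, 1.86 to 3.34%), 2.15% of Ma (44 of 2047, 1.57 to 2.87%) and 1.25% of Mb (26 of 2085, 0.816 to 1.82%). The intervals cover counting error only. The lanes of each sex had overlapping intervals, and Ma overlapped with both female lanes, while Mb overlapped with neither. Without possible doublets Mb (0.662 to 1.59%) overlapped with Fb (1.31 to 2.61%), and with a limit of 2 UMIs it also did, by a narrow margin (up to 1.88%, against 1.86% and above in Fb), so that the separation of Mb from Fb depends on these choices. With 2 lanes against 2, an exact permutation test cannot go below p = 0.333, and no test was run. The order was the same at equal depth: with every cell thinned to 2000 UMIs the shares were 2.94, 2.47, 1.95 and 1.20% in Fa, Fb, Ma and Mb. The EC yielded 543621, 591216, 368256 and 240442 UMIs in these lanes, with median depths of 7963.5, 10447, 7137 and 7596 UMIs per cell, so that a count is least precise in Mb. Mitochondrial genes took a median of 3.36, 3.32, 3.73 and 3.78% of the UMIs of a member.

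**Figure D1:**
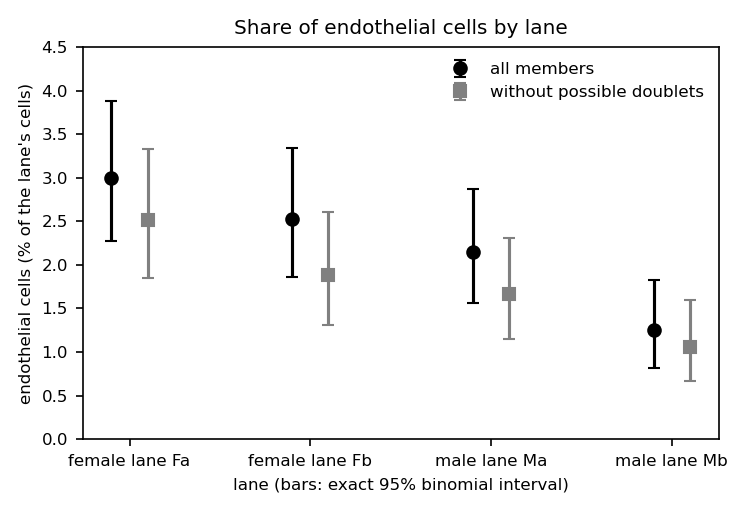
Share of EC among all cells of each lane (y axis, percent) for the 2 female and 2 male lanes (x axis), for all members (black circles) and without members that may be doublets (grey squares), with exact 95% binomial intervals as bars. The share of all members ranged from 3.0% in Fa to 1.25% in Mb, and the order of the lanes was the same without possible doublets.

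Members carried RNA of other cells to unequal extents. Of the 173 members, 18 also met the marker rule of HPC, 12 that of FSC, 9 that of Le and 1 that of collagen-producing cells, 4 had globin genes at or above 10% of their UMIs, and 7 were called doublets by comparison with simulated cell pairs. Together 35 members may be doublets, which left 138. Without them the shares were 2.52, 1.88, 1.66 and 1.06% in Fa, Fb, Ma and Mb. The summed level of 15 leukocyte genes in the members was 1889, 587, 1656 and 62.4 CPM, that of 12 folliculostellate genes was 690, 71.0, 369 and 616 CPM, and that of 8 red blood cell genes was 11927, 32354, 8513 and 229 CPM. Mb thus held almost no leukocyte or red blood cell RNA, and Fb held the most red blood cell RNA. In the 138 members that remained, the sums over all lanes were 64.7, 53.4 and 2491 CPM, respectively. The 14 hormone and secretory granule genes summed to between 4047 and 5022 CPM in every lane. The part of RNA from other cells in the results below was not tested beyond the values given without these 35 cells and a sex comparison whose sums left out hormone and globin genes. Between 3 and 7 barcodes were shared by each pair of lanes, none of them by 2 EC.

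The sex of the lanes was checked on Y-linked genes over all cells. *Eif2s3y* had 0, 1, 2038 and 2100 UMIs and *Kdm5d* had 0, 0, 228 and 264 UMIs in Fa, Fb, Ma and Mb.

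The next question was which genes set EC apart from the other cells of the same lanes. UMIs were summed per cell group and lane, and EC were compared with 562 Le, 2148 FSC, 4060 HPC and 6 collagen-producing cells in a single model with lane as a block (edgeR quasi-likelihood test). EC were higher, at an adjusted p under 0.05, than Le in 2874 of 10650 genes (27%), than FSC in 2817 (26.5%), than HPC in 3394 (31.9%) and than the 6 collagen-producing cells in 925 (8.69%). They were lower than Le in 2579 genes (24.2%), than FSC in 3093 (29%) and than HPC in 3446 (32.4%). The cells were chosen by genes of the same contrast, so that these counts describe the gate and are not independent evidence, and no p-value of a gene is given for them. The comparison with 6 cells was unreliable, since the median log2 difference over all genes was 5.44, and it was repeated with 46 collagen-producing cells, obtained by keeping cells that also met the rule of FSC (a choice made after the data were seen). There EC were higher in 1484 of 10796 genes (13.7%) and lower in 868 (8.04%), and the median difference was 0.34. Over all genes the median log2 difference was 0.09 against Le, −0.06 against FSC and −0.01 against HPC. Scaling by library size alone moved it by 0.60 against Le and 0.46 against HPC, and the share of higher genes among those past the threshold from 52.7 to 77.3% against Le and from 49.6 to 69.3% against HPC.

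A gene was called dominant in EC when it passed the threshold with a fold change over 3 against each of the 4 groups. This held for 143 of 10650 genes (1.34%) with the 6 collagen-producing cells and for 322 of 10796 (2.98%) with the 46, and 126 genes were dominant in both. The globin genes *Hba1*, *Hba2* and *Hbb* were among the 143: *Hba1* stood at 4980, 15282, 4576 and 79.0 CPM in Fa, Fb, Ma and Mb. Cells with globin genes at or above 10% of UMIs were left out of the other groups, but 4 such members were kept in EC. The contrast is therefore uneven for globin genes, and their dominance is not read as a trait of EC. Members that also met the rule of another group were likewise kept in EC. Genes were ordered by their smallest fitted log2 fold change over the 4 groups, which depends on the prior count where a group held 0 UMIs. With 3 UMIs as the floor of a group, the order differs. The smallest fold was then 122 for *Kdr* and at least 61.6 for *Tie1*, both outside the first 20, and at least 24.1 for *Cyyr1*, the first. The first 20 genes in the fitted order included receptors and kinases of the vascular growth factor families, the adhesion proteins of endothelial junctions, and an ETS transcription factor.

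Among the growth factor receptors, *Flt1* (VEGF receptor) stood at 476, 604, 516 and 686 CPM in Fa, Fb, Ma and Mb. It had 11 UMIs in all HPC, which made its level 2744-fold higher in EC, and 0 UMIs in the 46 collagen-producing cells, against which EC were at least 57.0-fold higher (taking 3 UMIs over a group as the floor). *Flt4*, the VEGF receptor best known from lymphatic vessels, was lower, at 82.8, 132, 97.8 and 116 CPM, and no UMI of it was found in Le, FSC or the 46 collagen-producing cells, so that EC were at least 137-fold, 576-fold and 11-fold higher. *Tek*, the angiopoietin receptor, stood at 278, 375, 280 and 287 CPM, 149-fold above Le and 1694-fold above HPC. *Ptprb*, the phosphatase that acts on *Tek* and on VE-cadherin, had 0 UMIs in Le and stood at 261, 310, 345 and 428 CPM in EC. *Kdr*, the main signalling receptor for VEGF, was the most abundant receptor of the family, at 1131, 1135, 1290 and 1481 CPM. Both male lanes lay above both female lanes for *Ptprb* and *Kdr*, but neither passed the test between the sexes described below, and for *Flt1*, *Flt4* and *Tek* the lanes of the sexes overlapped.

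The junction protein *Cdh5* (VE-cadherin) stood at 386, 370, 358 and 470 CPM and was 296-fold higher than in Le, 889-fold higher than in FSC and 4190-fold higher than in HPC. *Cd34*, a surface sialomucin, stood at 710, 479, 500 and 678 CPM and was 318-fold above Le. *Erg*, the ETS factor, stood at 272, 277, 318 and 250 CPM and was 2533-fold above HPC. The matrix-binding protein *Mmrn2* (215, 205, 225 and 262 CPM) is a ligand of the *Clec14a* receptor. Both genes at the top of the list, *Cyyr1* and *Myct1*, are less well known. *Cyyr1* stood at 232, 159, 291 and 349 CPM and had 0 UMIs in Le, 1 in FSC, 4 in HPC and 0 in the 46 collagen-producing cells. *Myct1* stood at 142, 115, 141 and 162 CPM, with 0, 1, 2 and 0 UMIs in these groups. The adhesion receptors *Eltd1* (213, 228, 299 and 329 CPM) and *Gpr116* (272, 352, 394 and 362 CPM) were nearly as restricted, with 10 UMIs each in all HPC.

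*Fam167b* was the most abundant of the 20, at 1284, 1387, 1306 and 1239 CPM, and was 1260-fold higher than in Le, 1178-fold higher than in FSC and 372-fold higher than in HPC. The remaining genes were *Treml1*, *Fam110d*, *Vwa1*, *Krt76*, *Exoc3l4*, *Dysf* and *Ptpru*, with levels between 99.8 and 310 CPM in single lanes. Of these, the keratin gene *Krt76* varied most, at 178, 271, 136 and 104 CPM. All 20 were also dominant with the 46 collagen-producing cells.

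**Figure D2:**
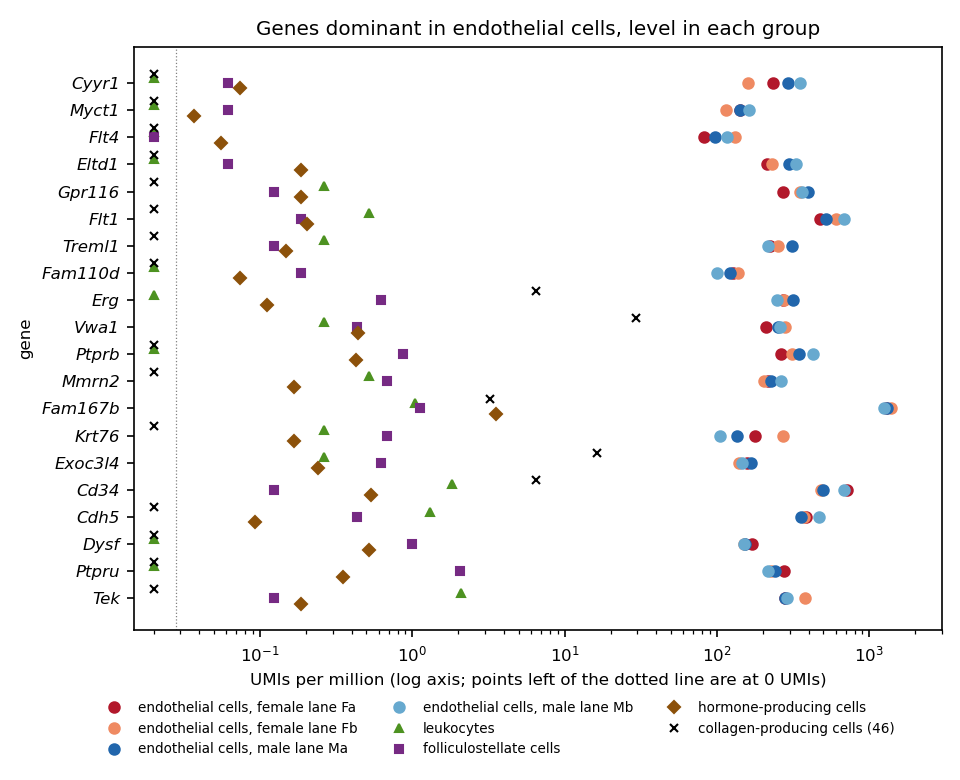
Level (x axis, CPM on a log scale) of the 20 genes (y axis) with the largest fitted differences between EC and the other groups, with a circle for the EC of each lane and symbols for the summed Le, FSC, HPC and 46 collagen-producing cells. The EC of all 4 lanes lay together, between 82.8 CPM for *Flt4* and 1387 CPM for *Fam167b*, to the right of every other group, and points left of the dotted line had 0 UMIs.

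The start sites of some of these genes are shown because the genes are high in the same cells, and because ETS factors such as *Erg* bind the letters AGGAAG. The sequences are RefSeq promoters of the build GRCr8, from 250 bases before to 50 bases after the start of the gene, written 5′ to 3′ on the strand of the gene, and capitals mark AGGAAG on either strand. *Plvap* is at chr16:18231230-18231529 on the minus strand, *Flt1* at chr12:12333180-12333479 on the plus strand, *Myct1* at chr1:44423228-44423527 on the plus strand, and *Cyyr1* at chr11:38150164-38150463 on the minus strand.
Plvap: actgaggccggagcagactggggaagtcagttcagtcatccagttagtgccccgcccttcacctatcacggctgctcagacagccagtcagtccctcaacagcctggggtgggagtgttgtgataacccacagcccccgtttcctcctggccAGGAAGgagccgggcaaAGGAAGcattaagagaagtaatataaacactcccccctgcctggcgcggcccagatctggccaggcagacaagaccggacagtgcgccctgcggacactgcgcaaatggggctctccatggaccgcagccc
Flt1: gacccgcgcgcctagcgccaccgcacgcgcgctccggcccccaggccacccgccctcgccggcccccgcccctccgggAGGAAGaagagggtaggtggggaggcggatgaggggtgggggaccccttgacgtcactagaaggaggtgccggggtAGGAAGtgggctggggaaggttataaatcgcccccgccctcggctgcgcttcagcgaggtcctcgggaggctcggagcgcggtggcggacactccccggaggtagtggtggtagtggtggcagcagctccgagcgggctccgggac
Myct1: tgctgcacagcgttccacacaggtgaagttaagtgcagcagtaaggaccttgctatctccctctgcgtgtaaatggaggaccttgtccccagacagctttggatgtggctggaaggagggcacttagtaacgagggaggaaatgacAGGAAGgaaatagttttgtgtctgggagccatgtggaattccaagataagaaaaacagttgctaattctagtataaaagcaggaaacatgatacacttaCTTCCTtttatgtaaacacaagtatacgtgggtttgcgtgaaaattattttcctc
Cyyr1: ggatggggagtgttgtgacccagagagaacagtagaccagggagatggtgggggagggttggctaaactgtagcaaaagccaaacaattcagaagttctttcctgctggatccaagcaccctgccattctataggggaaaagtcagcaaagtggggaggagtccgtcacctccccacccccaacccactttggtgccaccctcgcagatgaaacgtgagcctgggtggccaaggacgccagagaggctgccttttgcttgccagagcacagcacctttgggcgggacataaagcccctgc
The first 3 of these windows held 2 matches each, and that of *Cyyr1*, the gene at the top of the fitted order, held none. Of the 20 named genes, 17 were found in the RefSeq table, and 7 of the 17 (41.2%) had AGGAAG on either strand, compared with 34.3% of all 27457 promoters. These matches describe the windows, and binding was not measured.

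Gene lists show how the wider set of vascular genes stood in EC, again as a description of the gated cells, to be read against the shares of all genes above. Of 17 tested genes of endothelial junctions and surface, all 17 were higher than in Le, in FSC and in HPC, with median log2 differences of 6.65, 8.43 and 9.26, and against the 46 collagen-producing cells 16 of 16 were. *Eng*, a co-receptor for the TGF-β family, stood at 543, 737, 706 and 803 CPM, *Tie1* at 636, 636, 524 and 561 CPM, and *Egfl7*, a secreted guide of vessel growth, at 521, 597, 831 and 878 CPM. *Pecam1*, used widely as an endothelial marker, was low in comparison, at 167, 142, 204 and 258 CPM. Of 20 transcription factors, 14 were higher and 5 lower than in Le, 19 were higher and none lower than in FSC, all 20 were higher than in HPC, and 15 were higher and 2 lower than in the 46 collagen-producing cells. *Klf2*, induced by blood flow, was the most abundant, at 1659, 1460, 1382 and 1476 CPM. The SOX factors were low, with *Sox17* at 86.5, 101, 128 and 99.8 CPM, *Sox7* between 27.6 and 62.4 CPM and *Sox18* between 27.6 and 45.7 CPM.

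Of 13 receptors of the VEGF, semaphorin and angiopoietin families, 10 were higher than in Le, 8 than in FSC and 9 than in HPC, and 1, 4 and 3 were lower. In the TGF-β and BMP list, 11, 13 and 14 of 15 genes were higher than in Le, FSC and HPC, and 3, 0 and 0 were lower, but against the 46 collagen-producing cells only 5 of 15 were higher and 3 lower. Its most abundant members were *Tgfbr2*, a receptor, at 1273, 1309, 1385 and 1310 CPM, and *Id3*, a target of BMP signals, at 813, 1071, 1056 and 1268 CPM. Of 13 Notch genes, 11 were higher and 2 lower than in Le, 4 higher and 4 lower than in FSC (median log2 difference −0.19, near the shares over all genes), and 11 higher and none lower than in HPC. Against the 46 collagen-producing cells, 7 of 13 Notch genes were higher and 2 lower, and 8 of the 13 receptors were higher and 1 lower. *Hes1*, a Notch target, stood at 705, 377, 530 and 470 CPM, and the ligand *Dll4* at 62.5, 67.7, 92.3 and 112 CPM.

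Genes of fenestrae and caveolae were higher than in Le in 10 of 10 tested, than in FSC in 9 and than in HPC in 10, and none was lower. Against the 46 collagen-producing cells 8 of 10 were higher. After *Plvap*, the caveolar coat genes *Prkcdbp* (655, 641, 472 and 453 CPM) and *Sdpr* (383, 382, 489 and 403 CPM) were the most abundant. *Cav1*, the caveolin itself, was detected at only 53.3, 45.7, 92.3 and 146 CPM. Of 10 tested genes of the blood-brain barrier, 5 were higher and 2 lower than in Le, 3 higher and 5 lower than in FSC, and 4 higher and 5 lower than in HPC, and of 9 tested against the 46 collagen-producing cells 2 were higher and 2 lower. The shares that were higher than in FSC and HPC were near those over all genes (26.5 and 31.9%). The 5 of 10 lower than in each of them stand beside 29 and 32.4% over all genes, and the 5 of 10 higher than in Le beside 27%, without a test of the difference. *Itm2a*, a membrane protein gene of this list, was dominant in EC, with 644 UMIs in 137 cells (316, 377, 429 and 378 CPM). *Cldn5*, the tight junction claudin of brain endothelium, had 23 UMIs in 10 of 173 cells, and the glucose transporter *Slc2a1* had 29 UMIs in 26 cells. No UMI was found for *Mfsd2a*, *Slco1c1* or *Abcb1a*, transporters of brain endothelium, which allows up to 3 UMIs of 1743535. *Bsg* was high, at 721, 663, 676 and 624 CPM, but after thinning was found in 74.0% of EC and 75.5% of *Gh1*-rich cells.

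Vasoactive genes were higher than in Le in 11 of 11 tested, than in FSC in 8 (2 lower) and than in HPC in 10 (1 lower), and than in the 46 collagen-producing cells in 9 of 13 (1 lower). *Ramp2*, the subunit that makes *Calcrl* an adrenomedullin receptor, stood at 971, 922, 1016 and 769 CPM, while *Calcrl* itself stood at 114, 69.3, 86.9 and 125 CPM. *Ednrb*, an endothelin receptor, stood at 191, 213, 307 and 262 CPM. *Apln*, the ligand of *Aplnr*, stood at 263, 357, 377 and 266 CPM and was detected in 84 members (48.6%). *Aplnr* was a gene of the rule and was found in 168 of the 173 members, so that nothing is read from ligand and receptor being found in the same cells. The nitric oxide synthase *Nos3* was close to the detection limit, at 7.36, 6.77, 13.6 and 12.5 CPM.

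Lists that divide endothelium into arterial, venous, capillary, tip cell and lymphatic kinds each held genes that were higher in EC. Of 11 arterial genes, 9 were higher and none lower than in Le, 7 higher and 3 lower than in FSC, and 9 higher and 1 lower than in HPC. Of 8 venous genes, 4, 5 and 6 were higher than in Le, FSC and HPC and 2, 2 and 1 lower. Of 8 capillary genes, 6, 7 and 6 were higher and 1, 1 and 0 lower, and of 10 tip cell genes 6, 8 and 10 were higher and 2, 1 and 0 lower. Against the 46 collagen-producing cells, 4 arterial genes were higher and 3 lower, 2 venous genes higher and 3 lower, 5 capillary genes higher and 1 lower, and 4 tip cell genes higher and 1 lower. The arterial ligand *Efnb2* (132, 120, 128 and 121 CPM) and its venous receptor *Ephb4* (109, 156, 160 and 154 CPM) were both present. *Nr2f2*, a venous transcription factor, stood at 353, 274, 274 and 233 CPM, and *Esm1*, a tip cell gene, at 44.1, 74.4, 130 and 125 CPM. The capillary list was led by *Rgcc*, at 4196, 4536, 4046 and 4409 CPM, which after thinning was found in 94.2% of EC and 2.39% of *Gh1*-rich cells. *Car4*, also in that list, stood at 316, 308, 440 and 333 CPM, but its shares after thinning were 54.3 and 39.3%.

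*Lyve1*, the hyaluronan receptor of lymphatic and sinusoidal endothelium, was found in 93.1% of the members, at 695, 825, 978 and 819 CPM, and after thinning in 72.3% of EC and 0% of *Gh1*-rich cells. Of the other genes of the lymphatic list, *Flt4*, described above, had 187 UMIs in 93 cells, and the rest were close to absent. *Prox1*, the factor that defines lymphatic endothelium, had 0 UMIs in 173 cells, *Pdpn* had 10 UMIs in 6 cells, *Mmrn1* had 5, *Ccl21* and *Reln* had 1 each, and *Stab2*, a scavenger receptor of sinusoidal endothelium, had 0.

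Basement membrane genes were higher than in Le in 14 of 15 tested, than in FSC in 12 (1 lower) and than in HPC in 14. Against the 46 collagen-producing cells, which also make matrix, 6 of 16 were higher and 6 lower (median log2 difference −0.26). *Sparc*, a collagen-binding matrix protein, stood at 4264, 4695, 4296 and 3789 CPM, and *Col4a1*, a chain of basement membrane collagen, at 714, 903, 807 and 1065 CPM. Binding proteins for insulin-like growth factors were as abundant, with *Igfbp7* at 3245, 3703, 3927 and 3847 CPM and *Igfbp5* at 4220, 3493, 2460 and 2437 CPM. *Igfbp5* did not set EC apart from FSC (4229 CPM) or from the 46 collagen-producing cells (3943 CPM). Of 9 tested genes of the insulin-like growth factor list, 6, 3 and 6 were higher than in Le, FSC and HPC and 1, 2 and 2 lower. Against the 46 collagen-producing cells, 1 of 10 was higher and 4 were lower. *Igfbp3* ranged from 544 CPM in Fa to 1327 CPM in Mb. *Mgp*, an inhibitor of calcification, stood at 857, 820, 538 and 1015 CPM, against 41334 CPM in the collagen-producing cells. Of the 20 immediate early genes tested, 7 were higher and 8 lower than in Le, 3 higher and 15 lower than in FSC, 15 higher and none lower than in HPC, and 5 higher and 6 lower than in the 46 collagen-producing cells. *Fos*, which tissue dispersal can induce, stood at 5040, 3097, 4130 and 3781 CPM.

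Genes of antigen presentation and interferon response were lower than in Le in 15 of 20 tested (3 higher) but higher than in FSC in 16 (1 lower) and than in HPC in 18, and against the 46 collagen-producing cells 5 were higher and 2 lower. *B2m*, the light chain of class I molecules, stood at 4115, 4465, 4073 and 3440 CPM, and *Ifi27* and *Bst2*, both interferon-inducible, at 2675, 2889, 1882 and 1946 CPM and at 2000, 1822, 1339 and 1214 CPM. Of 11 leukocyte adhesion genes, 3 were higher and 7 lower than in Le, 5 higher and 4 lower than in FSC, and 10 higher and none lower than in HPC. Against the 46 collagen-producing cells, 2 of these 11 were higher and 6 lower (median log2 difference −1.30). Receptors for the hormones made or sensed by the pituitary were scarce. *Nr3c1*, the glucocorticoid receptor, had 162 UMIs in 91 cells, and *Thra*, a thyroid hormone receptor, 159 UMIs in 94 cells. The oestrogen receptor *Esr1* had 4 UMIs in 2 cells, *Pgr* had 4 UMIs in 2 cells, *Ghr* had 10 UMIs in 4 cells, *Prlr* had 1 UMI, and *Esr2* had 0.

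The sexes were then compared within EC, a contrast that the gate did not use. Of 5998 genes tested, 23 were higher in male EC (0.383%) and 25 in female EC (0.417%) at an adjusted p under 0.05 (edgeR quasi-likelihood test with Benjamini-Hochberg adjustment, 2 lanes against 2), and 498 had an unadjusted p under 0.05. The median log2 difference over all genes was 0.00. Of 16 tested junction and surface genes, 19 transcription factors, 9 VEGF, semaphorin and angiopoietin receptors, 12 TGF-β and BMP genes, 10 genes of fenestrae and caveolae and 14 basement membrane genes, none passed the threshold. At the shares over all genes, few or none would be counted in lists of this size, so that nothing particular to them is read from this. The medians of their log2 differences lay between −0.09 and 0.16. Each of the Notch, vasoactive, arterial and capillary lists held 1 male-higher gene, and the insulin-like growth factor list held 1 female-higher gene. On simulated data of the same size, 77% of genes with 4-fold and 25% of genes with 2-fold differences were recovered, so that smaller sex differences would mostly have been missed, and 8 genes with no difference were called. *Prl*, a gene of the rule, was higher in female EC (1045, 1076, 274 and 341 CPM) and in all other female cells (42578, 37855, 10670 and 9254 CPM), and was not counted.

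The gene with the largest female excess was *LOC100911498*, an uncharacterized locus. It had 226 and 229 UMIs in Fa and Fb and none in Ma and Mb (416, 387, 0 and 0 CPM), and was detected in 92 of 103 female cells and in 0 of 70 male cells. A cell without a captured UMI may still express the gene, so no limit is set on the share of expressing male cells. Its level in females was at least 81.4-fold higher (adjusted p = 3.8e-05). The other cells of the lanes showed the same direction, at 147, 139, 0.304 and 0.420 CPM.

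The largest named set among the female-higher genes was that of cell division. Of 20 cell cycle genes, 12 passed the low-count filter, and of these 6 were higher in female EC and none in male EC. Genes with 0 UMIs in both male lanes, such as *Ube2c* and *Birc5*, passed this filter through the female lanes alone. The count and the median log2 difference of −3.31 (male over female) therefore describe the list and are not a test of it. *Ube2c*, which feeds mitotic proteins to degradation, stood at 68.1 and 57.5 CPM in the female lanes and at 0 in both male lanes, at least 12.7-fold higher in females (adjusted p = 0.008), but came from 12 cells. *Birc5*, a survival and spindle protein, stood at 33.1, 47.4, 0 and 0 CPM in 18 female cells, at least 8.22-fold higher (adjusted p = 0.03). *Cdk1*, the mitotic kinase, stood at 44.1, 54.1, 2.72 and 4.16 CPM, a ratio of 15.0 from 56 female and 2 male UMIs (95% interval 3.97 to 127 for counting error, adjusted p = 0.02). The rule for naming these genes required that female and male lanes did not overlap. *Tuba1b*, an α-tubulin, was the most abundant, at 1216, 1373, 644 and 566 CPM (log2 fold change −1.15, SE 0.14, adjusted p = 0.008), followed by *Stmn1*, a regulator of microtubules, at 392, 418, 198 and 225 CPM (−1.01, SE 0.16, adjusted p = 0.024). *Pttg1*, *Tpx2*, *Cdca3* and *Spc24*, all of the mitotic machinery, were also called.

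These transcripts were concentrated in few cells. A rule set after the values were seen, 10 or more of the 20 cell cycle genes detected in a cell, picked out 13 members: 7 in Fa, 6 in Fb and none in Ma or Mb. They had a median depth of 16685 UMIs, and 9 of them remained without possible doublets (6 in Fa and 3 in Fb). They held 53.6% of the UMIs of the 20 genes in Fa and 56.7% in Fb, including 70 of the 71 UMIs of *Ube2c*, all 37 of *Tpx2* and 654 of 1473 female UMIs of *Tuba1b*. The summed level of the list was 2353, 2713, 1132 and 965 CPM, and without the 13 cells it was 1442, 1475, 1132 and 965 CPM, still higher in both female lanes. *Tuba1b* was the most abundant gene of the list, so the sum rests largely on it and does not describe each gene. Of the other 90 female cells, *Tpx2* was found in 0 and *Ube2c* in 1. The excess did not hold for *Stmn1* either. The 13 cells held 304 of its 460 female UMIs, and the other 90 female cells stood at 177 CPM, below both male lanes (198 and 225 CPM). Among the cells outside EC, the same rule found 48, 39, 37 and 28 cells in Fa, Fb, Ma and Mb.

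Single class I histocompatibility genes that passed the threshold are given here, picked after their values were seen. They come from no fixed list, and the tested members of the family were not counted, so nothing is read about the family. *RT1-T24-3* stood at 938, 939, 220 and 316 CPM (log2 fold change −1.89, SE 0.17, adjusted p = 0.0012). *RT1-CE4* stood at 541, 531, 244 and 158 CPM (adjusted p = 0.012) and *RT1-CE5* at 767, 732, 356 and 470 CPM (adjusted p = 0.027). *RT1-S2*, of the same family, differed in the opposite direction, at 1.84, 1.69, 100 and 74.9 CPM, a ratio of 51.3 from 55 male and 2 female UMIs (95% interval 13.5 to 434, adjusted p = 0.0016). The other cells of the lanes had the same directions, with *RT1-CE4* at 265, 234, 130 and 117 CPM, *RT1-CE5* at 157, 157, 113 and 108 CPM and *RT1-S2* at 0.0543, 0.0507, 3.82 and 3.11 CPM. Genes of this family share sequence, and the share of reads that each received is uncertain. *Irf7*, the interferon regulatory factor, stood at 84.6, 96.4, 16.3 and 33.3 CPM (−2.01, SE 0.36, adjusted p = 0.04), and was the only 1 of 18 tested genes of the antigen and interferon list to pass. *Igfbp5* was also higher in female EC, by a small margin that exceeded the spread between lanes (4220, 3493, 2460 and 2437 CPM, log2 fold change −0.71, SE 0.12, adjusted p = 0.03).

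Of the 48 genes, 21 were found in at most 20 members, and several depended on possible doublets. Without them, *Ube2c* had 36 UMIs in Fa and 3 in Fb (37 and 34 with them), *Tpx2* had 17 and 3 (17 and 20), and *Pttg1* had 30 and 2 (31 and 17). *G0s2*, an inhibitor of fat breakdown, stood at 99.3, 88.0, 0 and 0 CPM but came from 5 cells, 1 of which held 49.1% of its UMIs, and it was at 0 UMIs in all lanes without possible doublets. *Alas2*, the haem enzyme of red blood cells, stood at 55.2, 127, 8.15 and 0 CPM in 8 cells, and beside it the red blood cell genes summed to 11927, 32354, 8513 and 229 CPM. Without possible doublets *Alas2* was at 17, 0, 0 and 0 UMIs.

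The male-higher genes with the largest differences are given first, with no theme shared by all 23. *Cd300lg*, a receptor of capillary endothelium, had no UMI in 103 female cells and stood at 48.9 and 83.2 CPM in Ma and Mb, in 7 of 70 male cells, at least 23.6-fold higher (adjusted p = 0.0096). *Aqp1*, the water channel, stood at 0, 16.9, 277 and 208 CPM (log2 fold change 4.70, SE 0.55, adjusted p = 0.0056), and *Ramp3*, a second partner of *Calcrl*, at 5.52, 3.38, 89.6 and 162 CPM (4.64, SE 0.48, adjusted p = 0.0022). The log2 fold change of *Aqp1* ranged from 3.74 to 9.54 with a lane left out. *Gja4*, the arterial connexin, stood at 1.84, 3.38, 54.3 and 37.4 CPM (29 male and 3 female UMIs, ratio 18.0, 95% interval 5.59 to 92.5, adjusted p = 0.027), with 40.6% of its UMIs in 1 cell. All 4 were higher in each male lane than in either female lane, which the rule for naming them required. They were not all particular to EC, since the 46 collagen-producing cells had 355 CPM of *Aqp1* and 55.4 CPM of *Gja4*, against 92.9 and 18.4 CPM in all EC, and 0 UMIs of *Cd300lg* and *Ramp3*. *Eif2s3y* stood at 0, 0, 54.3 and 49.9 CPM in 25 male cells, at least 19.9-fold higher (adjusted p = 0.012), and *Ddx3*, a helicase gene, at 0, 0, 62.5 and 49.9 CPM in 27 male cells, at least 21.8-fold higher (adjusted p = 0.0096).

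Of 6 pericyte and mural genes that passed the low-count filter, 4 were higher in male EC and none in female EC. Genes with few female UMIs passed this filter through the male lanes, so these counts describe the list and are not a test of it. Male-higher genes known from mural cells, on that list or not, are given here. *Abcc9*, a potassium channel subunit, stood at 1.84, 11.8, 51.6 and 83.2 CPM (log2 fold change 3.10, SE 0.58, adjusted p = 0.043). *Rgs5*, a signalling regulator typical of pericytes, stood at 12.9, 42.3, 201 and 349 CPM (3.18, SE 0.41, adjusted p = 0.0096). *Higd1b*, a pericyte gene of mitochondria, stood at 0, 1.69, 35.3 and 125 CPM (43 male UMIs and 1 female UMI, ratio 80.2, 95% interval 13.6 to 3239, adjusted p = 0.027), and *Notch3*, the mural Notch receptor, at 1.84, 0, 29.9 and 49.9 CPM (23 male UMIs and 1 female UMI, ratio 42.9, 95% interval 6.96 to 1766, adjusted p = 0.043). *Ndufa4l2* stood at 0, 10.1, 67.9 and 108 CPM (3.88, SE 0.64, adjusted p = 0.027), with a log2 fold change from 2.93 to 8.01 when a lane was left out. The list as a whole summed to 155, 129, 497 and 819 CPM, while the defining genes of collagen-producing cells were close to 0 in EC: *Col1a1* and *Dcn* had 7 UMIs each, *Lum* had 2 and *Col1a2* had 0. Of these, 5 *Dcn* UMIs and 2 *Col1a1* UMIs lay in 2 male cells that also held mural genes.

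**Figure D3:**
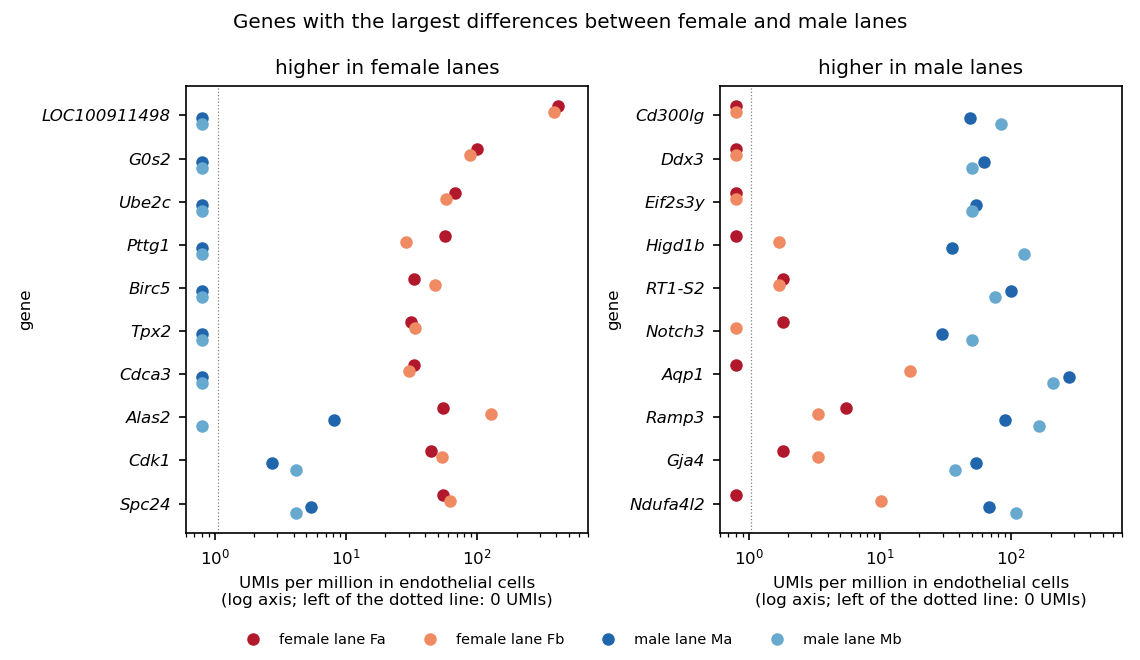
Level in the EC of each lane (x axis, CPM on a log scale) of the 10 genes with the largest differences in each direction (y axis), female-higher genes on the left and male-higher genes on the right. Only genes whose female and male lanes did not overlap were chosen, so the 2 lanes of each sex lay on the same side by that choice. Points left of the dotted line had 0 UMIs, as *LOC100911498* did in both male lanes and *Cd300lg* in both female lanes.

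Few cells gave these male-higher levels as well. In 7 members, 3 in Ma, 4 in Mb and none in the female lanes, *Aqp1*, *Cd300lg* and *Ramp3* were all detected (a rule set after the values were seen), and no cell outside EC met this rule. These cells had between 6673 and 13157 UMIs and between 51 and 109 UMIs of the 4 endothelial markers, and 5 of them remained without possible doublets. They held 71.2% of the UMIs of the 3 genes in Ma and 96.3% in Mb. The summed level of the 3 genes was 5.52, 20.3, 415 and 453 CPM, and without the 7 cells it was 5.52, 20.3, 129 and 20.1 CPM, so that Mb then lay within the female range. Separately, 9 members had 3 or more of 6 mural genes (*Rgs5*, *Notch3*, *Higd1b*, *Abcc9*, *Cox4i2* and *Ndufa4l2*), 0, 4, 3 and 2 in Fa, Fb, Ma and Mb, and 6 of them remained without possible doublets. The summed level of these genes was 18.4, 71.0, 424 and 790 CPM, and without the 9 cells it was 18.4, 13.2, 74.0 and 41.3 CPM, still higher in both male lanes but by less. Both rules were met by 4 cells, 2 in each male lane. Apart from simulated pairs, the screen for possible doublets found collagen-producing partners only by *Col1a1*, *Dcn* and *Lum*. A pair with a mural cell low in these genes could pass the screen, and this was not tested. In Mb, a cell that remained had 40 UMIs of *Rgs5* and 13 of *Higd1b*, and another had 44 and 16.

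Other genes of the 7 cells set them apart from the 63 other male EC, described here without a test because the cells were chosen by their values. *Ptn*, a heparin-binding growth factor, stood at 1901 CPM in the 7 cells and 108 CPM in the others, *Thbd* (thrombomodulin, an anticoagulant receptor) at 1282 and 124 CPM, *Htra1*, a secreted protease, at 490 and 13 CPM, and *Wfdc1*, a secreted inhibitor, at 475 and 11.1 CPM. *Ptn* and *Htra1* were also found in other groups, at 1701 and 134 CPM in the 46 collagen-producing cells and 1328 and 62.4 CPM in FSC. *Gpihbp1*, the capillary anchor of lipoprotein lipase, had 11 UMIs in the 7 cells and 1 in the others. Pericyte genes were also high in some of the 7 cells: *Rgs5* stood at 1815 and 59.3 CPM, *Pdgfrb* had 14 UMIs in 3 of the 7 cells and 3 UMIs in the others, and *Cspg4* had 8 UMIs in 3 of the 7 and 2 UMIs in the others. *Lyve1* was lower, at 158 and 1013 CPM, and so was *Igfbp3*, at 389 and 1155 CPM, though both were detected in 6 of the 7 cells (57 and 46 of the 63). *Apln*, at 72.0 and 367 CPM, was found in 3 of 7 and 33 of 63 cells. *Plvap* (5544 and 4035 CPM) and *Cdh5* (605 and 376 CPM) were high in both. In the same lanes, cells with melanotroph genes, a type of the intermediate lobe, numbered 0, 1, 14 and 18 in Fa, Fb, Ma and Mb outside EC, and their relation to the 7 cells was not tested.

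**Figure D4:**
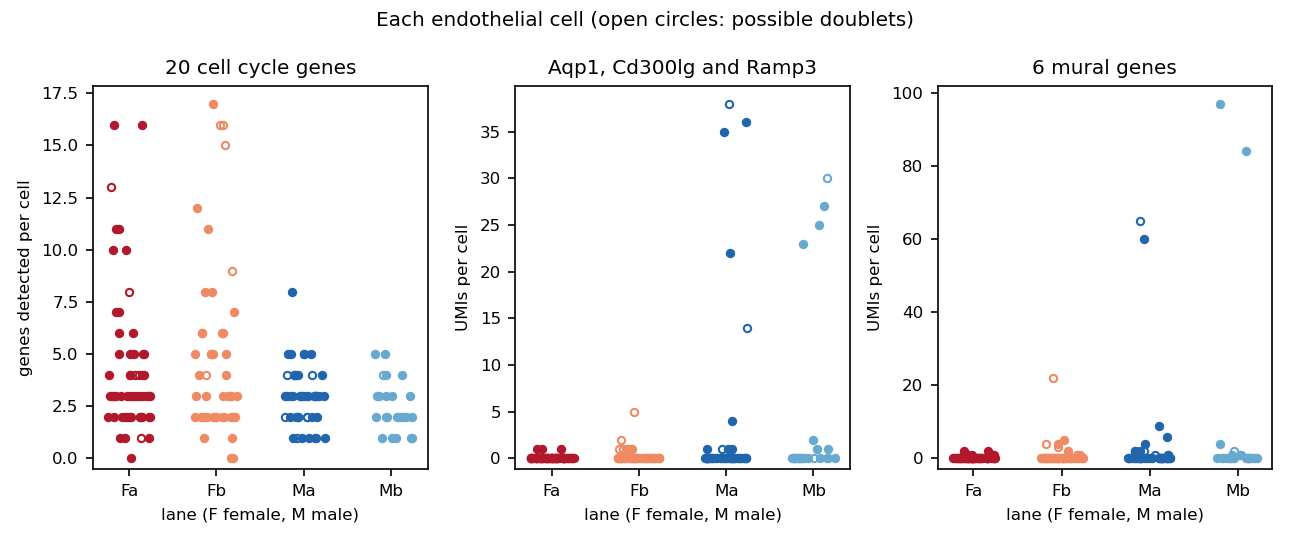
Values of single EC (a circle each, open for possible doublets) in the 4 lanes (x axis), showing the number of 20 cell cycle genes detected (left), the UMIs of *Aqp1*, *Cd300lg* and *Ramp3* (middle) and the UMIs of 6 mural genes (right). The 13 cells with 10 or more cell cycle genes were all in the female lanes, and the 7 cells in which *Aqp1*, *Cd300lg* and *Ramp3* were all detected were all in the male lanes.

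*Ptn* was also higher over all male EC (116, 59.2, 253 and 403 CPM), with 132 of its 190 male UMIs in the 7 cells, as were *Dlc1* (80.9, 81.2, 177 and 237 CPM, log2 fold change 1.27, SE 0.21, adjusted p = 0.03), and *Cst3*, a secreted protease inhibitor (804, 636, 1173 and 1393 CPM, 0.77, SE 0.14, adjusted p = 0.043). For *Cst3*, 212 of 767 male EC UMIs lay in the 7 cells. It had the same direction in FSC (2125, 2297, 4131 and 5301 CPM) and in the other cells of the lanes (1739, 1781, 2269 and 2291 CPM). *Tshb*, the thyrotropin chain, was higher in male EC (3.68, 8.46, 78.7 and 37.4 CPM) and in all other male cells (162, 233, 1771 and 1100 CPM), and its part in free RNA was not tested.

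The last comparison asked whether sex differences in EC were unlike those in FSC of the same lanes. The difference between the sex differences passed the threshold in 18 of 12228 genes toward males in EC (0.147%) and in 23 toward females in EC (0.188%), with 811 genes at an unadjusted p under 0.05. *Ptn* was higher in male EC but stood at 1470, 1589, 1095 and 1181 CPM in FSC (difference of log2 fold changes 2.26, SE 0.26, adjusted p = 0.00049). *Apoe*, the lipid carrier, stood at 4001, 3816, 4940 and 4583 CPM in EC and at 4743, 5970, 2527 and 2855 CPM in FSC (1.20, SE 0.14, adjusted p = 0.00049). *Tuba1b* was even between the sexes in FSC, at 1155, 1166, 1235 and 1175 CPM, unlike in EC (−1.22, SE 0.16, adjusted p = 0.0012). *Igfbp3* in EC (544, 719, 899 and 1327 CPM) and *Sparcl1*, a matrix protein (197, 203, 209 and 304 CPM), also differed from their levels in FSC, which were lower in males for both.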

How the data were processed

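Per the labels and the study's methods, the authors ran Cell Ranger (version 2.1 in the submitters' processing notes) against an NCBI rat annotation with genes extended at their 3′ ends and mitochondrial genes from Ensembl, and aggregated the lanes with mapped-read normalization, which thins deeper lanes. The deposited values are UMI counts of 30058 genes in 7861 cells. UMIs are counted at the 3′ end, so levels do not depend on transcript length. Barcodes were assigned to a lane and sex by the cell numbers that the study gives per lane. Which lane was replicate 1 is not given in the sources used here.

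Members were found by the stated rule. Le, FSC, HPC and collagen-producing cells had at least 3 UMIs over 4, 4, 4 and 3 marker genes, with 2 or more detected, and met no other rule, and cells with globin genes at or above 10% of UMIs were left out of these groups. Doublets were called by neighbours among simulated pairs in each sex (201 of 7861 cells) and kept, except in a named alternative. The members and gene lists were chosen with earlier results of these data known. UMIs were summed per group and lane and tested with edgeR 4.0.16 (TMM, filterByExpr with a minimum count of 10, quasi-likelihood, 2-sided, R 4.3.3), with Benjamini-Hochberg adjustment over all genes of a comparison and genes of the rules left out. The lane was a block between groups because a lane gave a sum for each of them. The script was tested on simulated data. Genes named are the 20 dominant genes with the largest smallest fitted fold change, the 10 in each direction with the largest sex difference and no overlap of lanes, the 10 smallest p-values of the sex-by-group test, the most abundant members of each list and list members called by sex. Further sex differences and the genes of single cell sets were chosen after their values were seen.

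Alternatives were DESeq2 1.42.0, library-size scaling, no filter, an adjusted p under 0.001, no possible doublets, at least 5 marker UMIs, cells thinned to 2000 UMIs, no cells above 7.09% mitochondrial UMIs, sums without hormone and globin genes, no lane block and each lane left out. The limit of 5 marker UMIs kept the same 173 members, so it could not change a result. Shares have exact Clopper-Pearson intervals at the 95% level, 3 UMIs was the floor of a count of 0, and both cover counting error only. Promoters were taken from RefSeq (GRCr8) by symbol.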

Additional observations from a re-analysis of the deposited data

Results flagged for a closer look

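In 10 genes, by the smallest p-values, the sex difference in EC was unlike that in FSC of the same lanes (edgeR test of the difference of log2 fold changes, male over female, EC minus FSC, with Benjamini-Hochberg adjusted p). Values were 2.26 for *Ptn*, 1.20 for *Apoe* and 1.83 for *Sparcl1* (197, 203, 209 and 304 CPM in the EC and 302, 317, 108 and 99.5 CPM in the FSC of Fa, Fb, Ma and Mb), each with an adjusted p of 0.00049. *Ramp3* reached 5.89 (adjusted p = 0.00049), with between 1.49 and 5.53 CPM in FSC and with 62 of its 72 male EC UMIs in the 7 cells that had *Aqp1*, *Cd300lg* and *Ramp3*, and *Cox4i2*, a subunit of mitochondrial complex IV, reached 5.06 (adjusted p = 0.00092), with 21 of its 32 male EC UMIs in those cells. They also held 132 of 190 male EC UMIs of *Ptn*. For the microtubule gene *Tuba1b* the value was −1.22 (adjusted p = 0.0012) and for *Igfbp3* 1.56 (adjusted p = 0.0025), the latter with 96.0, 78.6, 45.9 and 52.3 CPM in FSC. *Sgk1*, a kinase gene induced by glucocorticoids, had −1.93 (adjusted p = 0.0031), with 291, 259, 174 and 283 CPM in EC, where the sexes overlapped, and 13.9, 9.55, 34.5 and 33.9 CPM in FSC. *Tsc22d1*, known as a gene induced by TGF-β, had 1.38 (adjusted p = 0.0031), with 134 of 266 male EC UMIs in the 7 cells. *G0s2* had a fitted value of −10.4, which depends on the prior count because male EC held 0 UMIs, and it came from 5 female cells. Among them, 1 cell held 49.1% of the UMIs, and without possible doublets no EC held any. With DESeq2, 5 of the 10 genes (*Apoe*, *Tuba1b*, *Igfbp3*, *Sgk1* and *Tsc22d1*) did not pass the threshold.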

How the results depend on the processing

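The sex differences in EC rest on 2 lanes of 1 pool per sex and on few cells. The 23 male-higher and 25 female-higher genes became 13 and 18 with DESeq2, 59 and 100 without a filter on low counts, 10 and 16 without cells of high mitochondrial share, 2 and 2 with cells thinned to 2000 UMIs (1665 genes tested), and 0 and 1 at an adjusted p under 0.001. Of the 48 genes, 27 were shared with DESeq2, 48 with library-size scaling, 36 of the 39 still tested without possible doublets, 26 of 47 without cells of high mitochondrial share and 4 of 18 after thinning, where 17 kept their direction. With hormone and globin genes left out of the sums, 24 male-higher and 31 female-higher genes were called, among them all 48. DESeq2 no longer called *Birc5*, *Tpx2*, *Cdca3*, *Cdk1*, *Spc24*, *Notch3*, *Aqp1*, *Gja4* or *Ndufa4l2*, and without cells of high mitochondrial share *Tpx2*, *Cdca3*, *Alas2*, *Notch3* and *Gja4* lost the call (adjusted p between 0.056 and 0.081). Leaving out a lane gave 40 to 68 male-higher and 64 to 82 female-higher genes, with the lone lane of a sex assumed to vary like the other sex, and *Pttg1*, *Tpx2*, *Cdca3* and *Notch3* lost the call without Fa, and *Birc5*, *Tpx2*, *Cdca3*, *Cdk1* and *Notch3* without Fb.

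Genes whose sex difference was unlike that in FSC numbered 18 (toward males) and 23 (toward females), 7 and 2 with DESeq2, 42 and 62 without a filter, 48 and 65 without possible doublets, 5 and 1 at an adjusted p under 0.001, and 8 to 93 and 7 to 64 with a lane left out. With DESeq2, *Apoe*, *Tuba1b*, *Igfbp3*, *Sgk1* and *Tsc22d1*, 5 of the 10 named genes, lost this call (adjusted p between 0.12 and 0.35). *Igfbp3* and *Tsc22d1* also lost it without Ma or Mb, and *Sgk1* without Ma. The value of *G0s2* turned from −10.4 to 0.29 without possible doublets, where EC held none of its UMIs.

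Dominant genes numbered 143, 55 with DESeq2, 27 with library-size scaling, 322 with 46 collagen-producing cells, 40 at an adjusted p under 0.001, and 90 to 143 with a lane left out. Against the 6 collagen-producing cells, 925 genes were higher and 113 lower in EC, 154 and 421 with DESeq2, 73 (higher) with library-size scaling, 276 and 42 at an adjusted p under 0.001, 573 to 889 and 54 to 123 with a lane left out, and 1484 and 868 with 46 cells. On simulated data this comparison made 321 false calls among 10673 genes, against 4 with the 46 cells. Passing against these 6 cells was part of the rule for dominant genes (549 genes passed the other 3 comparisons), so the 143 genes rest on it, while 126 of them and all 20 named genes were also dominant with the 46 cells. Library-size scaling gave 5029 higher and 1475 lower than Le, and 2098 lower than HPC (2579 and 3446 in the main analysis), and without a filter 5239 were lower than HPC. An adjusted p under 0.001 left 1680 higher and 1664 lower than Le, 1783 and 1750 than FSC, and 2254 lower than HPC. With a lane left out, 2373 to 2746 were higher and 2235 to 2524 lower than Le, 2483 to 2617 and 2635 to 2928 than FSC, and 2961 to 3184 and 3083 to 3491 than HPC. The cause of these shifts was not tested.

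No paired analysis was possible because the barcodes carry no replicate number that would tie a female lane to a male lane. Comparisons of cell groups had the lane as a block, and without the replicate block 155 genes were dominant and 2864, 2810, 3375 and 968 were higher than in Le, FSC, HPC and the 6 collagen-producing cells, which changed no count by more than 1.5 times. For the named genes, 1104 values kept direction and side of the threshold over all settings, 72 lost the threshold and 1 reversed. Genes no longer tested in a setting were not counted. Of the 20 named sex genes, only 2 were counted after thinning and 12 without possible doublets. Most of the 1104 values came from the comparisons of cell groups, which describe the gate. The limit of 5 marker UMIs, which kept the same cells, is among the settings.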
